A study of Mus musculus with 16 samples.

Results

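The comparison described here sets 6 Myc-induced B cell lymphomas against 2 samples of normal B cells, all from mice whose cells lack p53 (genotype p53 -/-). The samples were chosen by their labels, as the 8 p53-null samples among 16 in the series. Lymphoma cells came from lymph nodes and normal B cells from spleen, both of mice of a C57BL6/129 hybrid background, and every sample passed through magnetic depletion of other cell types before RNA was taken. The other 8 samples, 6 lymphomas and 2 normal B cell samples of genotype p53 246/-, carry the 246 allele opposite the missing one and entered the same fit, where they add to the estimate of the spread between samples. All 16 samples thus share at least 1 missing p53 allele. RNA was measured on whole-transcript mouse exon arrays, 1 array per sample, as log2 intensity of 14860 genes. The labels and design text do not give which Myc sequence drives the lymphomas, its promoter or the ages of the mice. Since no label ties a sample to an animal, replicates may be technical, and each p-value covers only the variation seen among these arrays.

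The p53 protein is a transcription factor that stops division or starts cell death after damage or forced growth. Myc is a transcription factor that binds DNA with its partner Max and raises genes of growth, ribosome assembly and metabolism, and in cells with working p53 excess Myc drives many of them into death. In both groups compared here p53 is missing, so the comparison asks how Myc lymphoma cells differ from normal B cells when neither has p53. A resting mature B cell of the spleen divides little and carries receptors for antigen, complement, antibody and microbial nucleic acid.

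Normal sample 1 stood apart from the other normal samples before any gene was compared. Its standard deviation over genes was 1.57 on the log2 scale, against 1.75 in normal sample 2, while the lymphomas ranged from 1.77 to 1.93. Over 800 genes of odorant and pheromone receptors, used here as a low reference, the median was 3.72 to 3.99 in lymphomas, against 4.21 in normal sample 1 and 3.91 in normal sample 2. The correlation of normal sample 1 with the other 3 normal arrays of the series was 0.957 to 0.959, and the lymphomas correlated with each other at 0.971 to 0.987. Lymph node or spleen as the source, and the way arrays were named, go with lymphoma or normal in every sample, and cannot be told apart from it. Counts of most gene lists are therefore given with and without normal sample 1 where that changes them. The fit without it holds 1 p53-null normal sample and calls fewer genes over all genes too. A smaller list count there is not read as a trait of the list. A gene is called near background in a group whose mean is at or under 5.16, the 95th percentile of those receptor genes. A difference against a value near background may understate the change. In bulk samples such as these, fewer cells of a type and less RNA per cell cannot be told apart.

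Lymphomas and normal B cells differed in 4737 genes, 31.9% of the 14860 tested, by limma with a Benjamini-Hochberg adjusted p under 0.05. Of these 2600 were higher in lymphomas, 17.5% of all genes, and 2137 were lower, 14.4%. Counts of each list below are read against these shares. At least 2-fold differences were called for 1484 higher and 825 lower genes, and at least 8-fold differences for 77 higher and 69 lower genes. Without normal sample 1 the count was 2856 (19.2%), of which 2757 were called in the same direction with both normal samples, 1683 higher and 1074 lower. In 5726 genes (38.5%) the 6 lymphomas did not overlap with the 2 normal samples, and 4330 of the called genes were among them. The median log2 difference over all genes was -0.11, and centring each array on its median moved it by 0.13, so list medians below are read against it. The share of called genes that were higher was 54.9% as deposited, 66.9% with centred arrays and 49.96% after quantile normalization, so the balance of higher and lower calls depends on scaling. The median standard deviation of a gene was 0.18 over lymphomas and 0.21 over the 2 normal samples. Of the called genes 702 were near background in both groups. The number of arrays limits the precision: the median 95% interval of a difference reached 1.30-fold to either side.

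**Figure D1:**
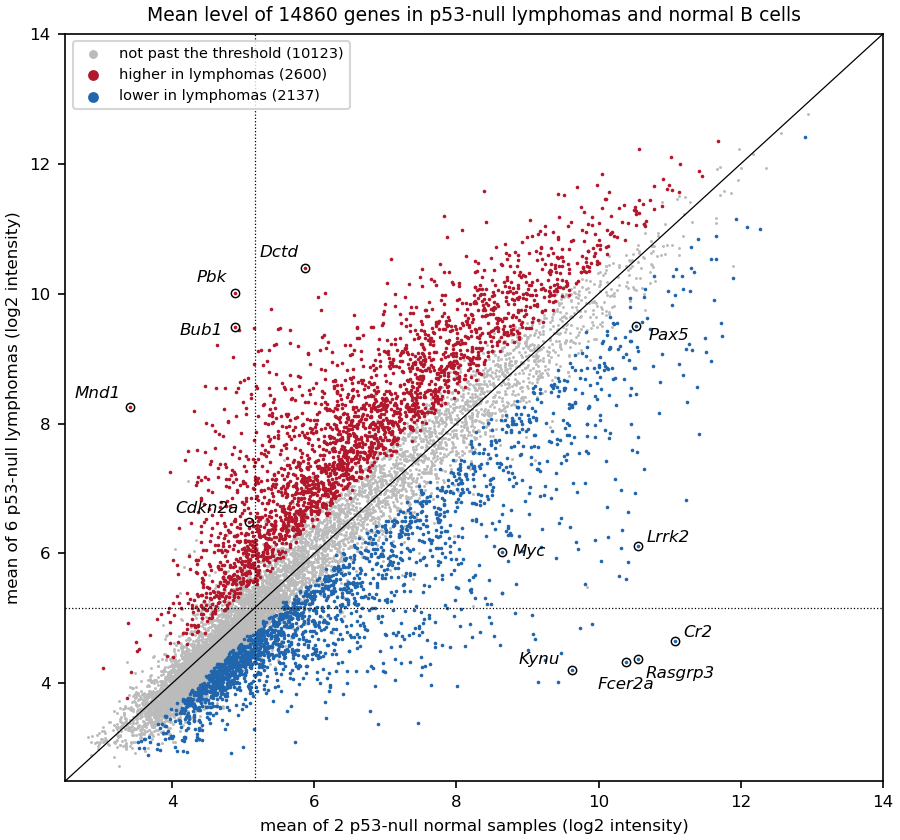
Mean log2 intensity of each of the 14860 genes in the 6 p53-null lymphomas (vertical axis) against the 2 p53-null normal samples (horizontal axis), with genes past the adjusted p of 0.05 in red (2600 higher in lymphomas) and blue (2137 lower in lymphomas) and dotted lines at the low-value level of 5.16. Pbk, Bub1 and Mnd1 lie left of the vertical dotted line and far above the diagonal, Cr2, Rasgrp3, Fcer2a and Kynu lie under the horizontal dotted line, and Myc lies below the diagonal.

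The 15 highest and the 15 lowest differences were drawn only from called genes without overlap between the groups, so their separation was set by the choice. Over all genes 38.5% had no overlap. The 15 highest began with Pbk, Mnd1, Bub1, Asns and Dctd. Values are given for lymphomas as the lowest, the median and the highest of the 6, and for normal samples as sample 1 and sample 2. Pbk, a mitotic kinase, had log2 intensities of 9.73, 10.04 and 10.29 in lymphomas, against 4.72 and 5.06 in normal samples, a difference of 5.12 (SE 0.21, 34.9-fold, adjusted p = 3.1e-11, limma). Mnd1, a cofactor of meiotic recombination, had 7.51, 8.31 and 8.80 in lymphomas, against 3.02 and 3.78 in normal samples, so every lymphoma stood far above a pair of normal values near background. Asns, which makes asparagine, had 8.62, 9.31 and 9.70 in lymphomas, against 4.80 and 4.45 in normal samples (difference 4.58, SE 0.29). Dctd, the deaminase that turns dCMP to dUMP for thymidylate synthesis, had 10.02, 10.28 and 11.21 in lymphomas, against 5.86 and 5.88 in normal samples (difference 4.53, SE 0.25). By that choice the lowest lymphoma lay above both normal samples in all 4 genes.

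Further down the same list stood Airn, an imprinted noncoding RNA (difference 4.50, SE 0.36), the replication checkpoint kinase Chek1 (4.38, SE 0.17) and its adaptor Clspn (4.16, SE 0.20). Pter, a phosphotriesterase-related protein, differed by 4.11 (SE 0.51), with 7.03 in the lowest lymphoma and 9.27 in the highest, a wider spread than the others. The centromere gene Cenpn (3.96), the CTP synthase Ctps (3.95), the centriole gene Stil (3.92), Cdca7, a Myc and E2F target of the cell cycle (3.91), and the mitotic kinesin Kif11 (3.89) completed the 15 highest. All 15 passed without normal sample 1 and all 15 were called higher in p53-246 lymphomas over p53-246 normal samples too.

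At the other end stood receptors and signalling genes of mature B cells. Cr2, the complement receptor CD21, had 4.13, 4.60 and 5.38 in lymphomas, against 11.10 and 11.04 in normal samples, a difference of -6.41 (SE 0.23, 85.3-fold lower, adjusted p = 4.83e-12, limma). Rasgrp3, which activates Ras below the B cell receptor, had 4.02, 4.25 and 5.08 in lymphomas, against 10.52 and 10.57 in normal samples (-6.17, SE 0.26). Fcer2a, the low-affinity IgE receptor CD23, had 4.11, 4.32 and 4.64 in lymphomas, against 10.32 and 10.44 in normal samples (-6.04, SE 0.18). By the rule of choice every lymphoma lay below both normal samples in these genes, and the lymphoma mean was near background. Kynu, an enzyme of tryptophan breakdown, differed by -5.43 (SE 0.58), the Fc receptor-like gene Fcrl5 by -5.41 (SE 0.19) and Rasgef1b, an exchange factor for Ras-family proteins, by -5.13 (SE 0.18). Rras2, a Ras-family GTPase, had a median of 4.37 in lymphomas and 6.29 in the highest of them, against 9.13 and 9.09 in normal samples (-4.42, SE 0.78).

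The other genes of the 15 lowest were Trim30b (-5.001), the platelet chemokine Ppbp (-4.99), the lymphocyte GTPases Gimap8 (-4.89) and Gimap6 (-4.54), the inhibitory ligand Cd200 (-4.88), Ms4a6c, the inflammatory caspase Casp4 (-4.50) and the kinase Lrrk2 (-4.44). Gimap6 spread from 4.17 to 6.81 over the lymphomas, against 10.16 and 10.66 in normal samples, and Ms4a6c from 4.37 to 7.33, against 10.21 and 10.35 in normal samples. All 15 passed without normal sample 1, and all 15 were called lower in the p53-246 comparison as well. Ppbp is a defining gene of platelets, and its values are taken up again with the markers of other cells.

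**Figure D2:**
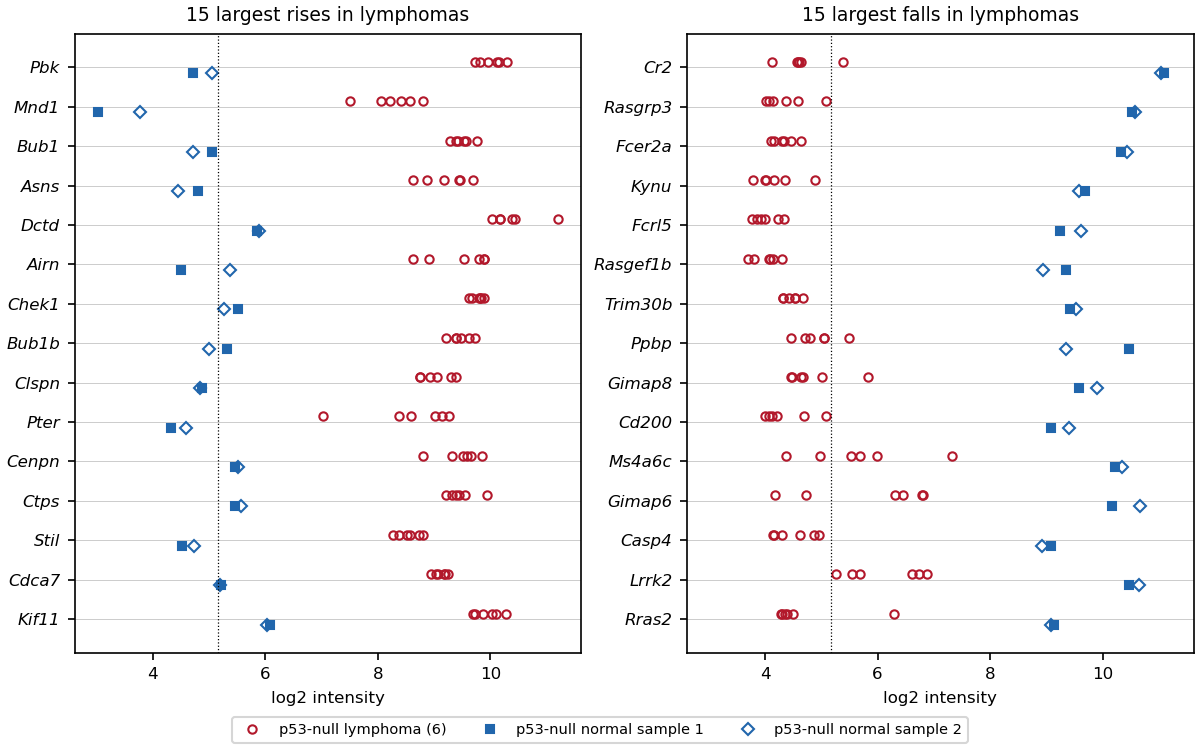
Log2 intensity of the 15 genes with the largest rises (left panel) and the 15 with the largest falls (right panel) in each of the 6 p53-null lymphomas (red circles) and in p53-null normal samples 1 and 2 (blue squares and diamonds). The dotted line marks the low-value level of 5.16. Genes were drawn only from those without overlap between lymphomas and normal samples. Ms4a6c, Gimap6 and Rras2 show the widest spread over the lymphomas among the falls.

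Genes that copy and divide the chromosomes rose nearly without exception. Of 28 measured members of the replication licensing and fork list all 28 rose (median difference 2.51), with and without normal sample 1. These proteins load and fire the helicase that opens DNA and then copy it. Dtl, which targets the licensing factor Cdt1 for destruction, had 8.32, 8.62 and 8.68 in lymphomas, against 5.23 and 5.13 in normal samples (3.40, SE 0.18, adjusted p = 3.86e-10, limma). Pole, the leading-strand polymerase, rose by 3.29 (SE 0.26), the helicase subunit Mcm3 by 3.06 (SE 0.25) and the helicase activator Gins2 by 2.92 (SE 0.34). Cdt1 itself had the smallest rise of the list, 0.74.

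All 27 measured mitotic kinesin, kinetochore and spindle genes rose as well (median 3.18), and all 27 passed without normal sample 1. The spindle checkpoint kinase Bub1 had 9.28, 9.48 and 9.75 in lymphomas, against 5.06 and 4.71 in normal samples (4.61, SE 0.16). Bub1b, the BubR1 partner of the same checkpoint, had 9.20, 9.44 and 9.72 in lymphomas, against 5.31 and 5.002 in normal samples (4.31, SE 0.17). The range over the 6 lymphomas was under 1 log2 unit in both genes, narrower than the gap to the normal samples. The mitotic kinases Aurkb and Plk1 rose by 2.46 and 1.74, and the survivin gene Birc5 by 3.64. Of 12 condensin and cohesin subunits, the rings that fold and hold chromosomes, 10 rose and none fell (9 without normal sample 1). The condensin members Ncapg2 (3.62, SE 0.26), Ncaph (3.43, SE 0.21) and Smc2 (2.51, SE 0.13) led, and the cohesin members Stag1 and Stag2, at 0.27 and 0.07, did not pass.

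The control of entry into S phase was divided. Of 21 cyclins, kinases and E2F genes 15 rose and 4 fell (15 and 3 without normal sample 1). Cyclin A2 (Ccna2) rose by 3.65 (SE 0.15), cyclin E2 (Ccne2) by 3.12 (SE 0.22), E2f8, a repressor among the E2F factors, by 2.96 (SE 0.20) and Cdk1 by 2.88 (SE 0.18). The D-type cyclins, which partner Cdk4 and Cdk6, did not move alike. Ccnd1 had 7.03, 7.80 and 8.71 in lymphomas, against 5.26 and 5.44 in normal samples (2.46, SE 0.31, adjusted p = 9.55e-06), and Ccnd2 had 5.34, 5.66 and 6.06 in lymphomas, against 7.20 and 7.48 in normal samples (-1.64, SE 0.40, adjusted p = 0.00436, both limma). Ccnd3 stood at -0.18 and did not pass. The other members that fell were restraints on the cell cycle: the inhibitor Cdkn1b (-0.98) and the pocket proteins Rb1 (-1.12) and Rbl2 (-1.03). A further inhibitor, Cdkn2c, went the opposite way, at 2.01 (SE 0.22). These D cyclins and inhibitors were named after their values were seen.

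Ribosome assembly and translation rose. All 20 measured genes of RNA polymerase I and ribosome assembly were higher (median 1.77), 17 of them without normal sample 1. Wdr12 of the large-subunit processing complex had 8.16, 8.94 and 9.09 in lymphomas, against 6.39 and 5.91 in normal samples (2.67, SE 0.29, adjusted p = 1.95e-06, limma). The polymerase I subunit Polr1b rose by 2.54 (SE 0.25) and the nucleolar GTPase Gnl3 by 2.11 (SE 0.15). All 16 measured cytosolic aminoacyl-tRNA synthetases, which charge tRNAs with their amino acids, rose (median 1.52), 13 of them without normal sample 1. Kars rose by 1.84 (SE 0.26), Gars by 1.80 (SE 0.17) and Lars by 1.71 (SE 0.14). Of 12 initiation factors 9 rose and none fell (6 without normal sample 1), led by Eif3b (2.22, SE 0.17) and the cap-binding protein Eif4e (2.18, SE 0.26). Cytosolic ribosomal proteins could be read only in part, since 9 of 32 listed genes were measured under a single symbol; 6 rose, 3 of them without normal sample 1, and Rplp0 led with 2.57 (SE 0.16).

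Mitochondrial, transport and turnover genes followed. Of 28 mitochondrial ribosomal proteins 25 rose and none fell (median 1.27; 23 without normal sample 1), and of 17 oxidative phosphorylation genes 16 rose (median 1.22; 14 without normal sample 1). Sdhb of complex II had 8.39, 8.61 and 8.82 in lymphomas, against 6.18 and 6.88 in normal samples (2.09, SE 0.23). Of 27 importins, exportins and nuclear pore genes 24 rose (20 without normal sample 1), led by the importin Ipo5 (2.58, SE 0.15) and the pore subunit Nup43 (2.34, SE 0.16). All 6 measured subunits of the CCT chaperonin, which folds actin and tubulin, rose with and without normal sample 1 (median 1.56), and Cct3 led with 2.72 (SE 0.22). Of 20 proteasome subunits 19 rose (18 without normal sample 1), with Psmb2 at 1.82 (SE 0.12); the remaining one, Psma3, stood at 0.85.

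Genes that make nucleotides rose. Of 22 nucleotide synthesis genes 20 rose and 1 fell (20 and none without normal sample 1; median 1.99). Ctps had 9.21, 9.41 and 9.94 in lymphomas, against 5.47 and 5.57 in normal samples (3.95, SE 0.19), while Ctps2, the other CTP synthase gene, was the one that fell (-1.01). The first enzyme of purine synthesis, Ppat, had 10.56, 10.82 and 11.32 in lymphomas, against 7.67 and 8.06 in normal samples (3.01, SE 0.18). Every lymphoma lay above both normal samples in these rises. Of 12 serine, one-carbon and asparagine synthesis genes 9 rose and none fell (10 without normal sample 1), with Asns, Shmt1 (2.62, SE 0.15), Mthfd2 (2.53, SE 0.28) and Mthfd1 (2.23, SE 0.21) in front.

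Of 19 amino acid transporters 6 were higher and 4 lower (31.6% and 21.1%, against 17.5% and 14.4% over all genes), and without normal sample 1 the counts were 5 and 2. The rises were led by the large neutral amino acid carrier Slc7a5 (2.86, SE 0.22), Slc43a3, which carries purine bases (2.86, SE 0.35), and the arginine carrier Slc7a1 (1.97, SE 0.26). Glycolysis had 7 of 15 higher and 1 lower (6 and 1 without normal sample 1). Of the glycolysis list 46.7% was higher and 6.67% lower with both normal samples, against 17.5% and 14.4% over all genes. The lactate carrier Slc16a1 had 7.39, 7.81 and 8.18 in lymphomas, against 4.75 and 4.69 in normal samples (3.09, SE 0.22). Hexokinases differed in sign, with Hk2 at 1.26 and Hk1 at -1.07. Sterol and fatty acid synthesis had 7 of 20 higher and 2 lower (7 and 1 without normal sample 1). The fatty acid elongase Elovl6 had 7.42, 8.0035 and 8.42 in lymphomas, against 4.47 and 4.48 in normal samples (3.54, SE 0.43), whereas the desaturase Scd1 had 7.65, 8.76 and 9.28 in lymphomas, against 10.78 and 10.94 in normal samples (-2.22, SE 0.30). Its neighbour in function, Scd2, was at 1.34. Of the sterol and fatty acid list 35% was higher and 10% lower with both normal samples, against 17.5% and 14.4% over all genes. Of 6 polyamine genes 1 rose, the spermidine synthase Srm (2.35, SE 0.25), a share of 16.7% against 17.5% over all genes, and 2 rose without normal sample 1. Among 22 polycomb and DNA methylation genes 9 rose and 2 fell (40.9% and 9.09%, against 17.5% and 14.4% over all genes). Uhrf1, which guides the maintenance methyltransferase, was at 3.86 (SE 0.29), Ezh2 at 1.86 (SE 0.17) and Dnmt1 at 1.53 (SE 0.16). Ezh1 was at -0.89.

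**Figure D3:**
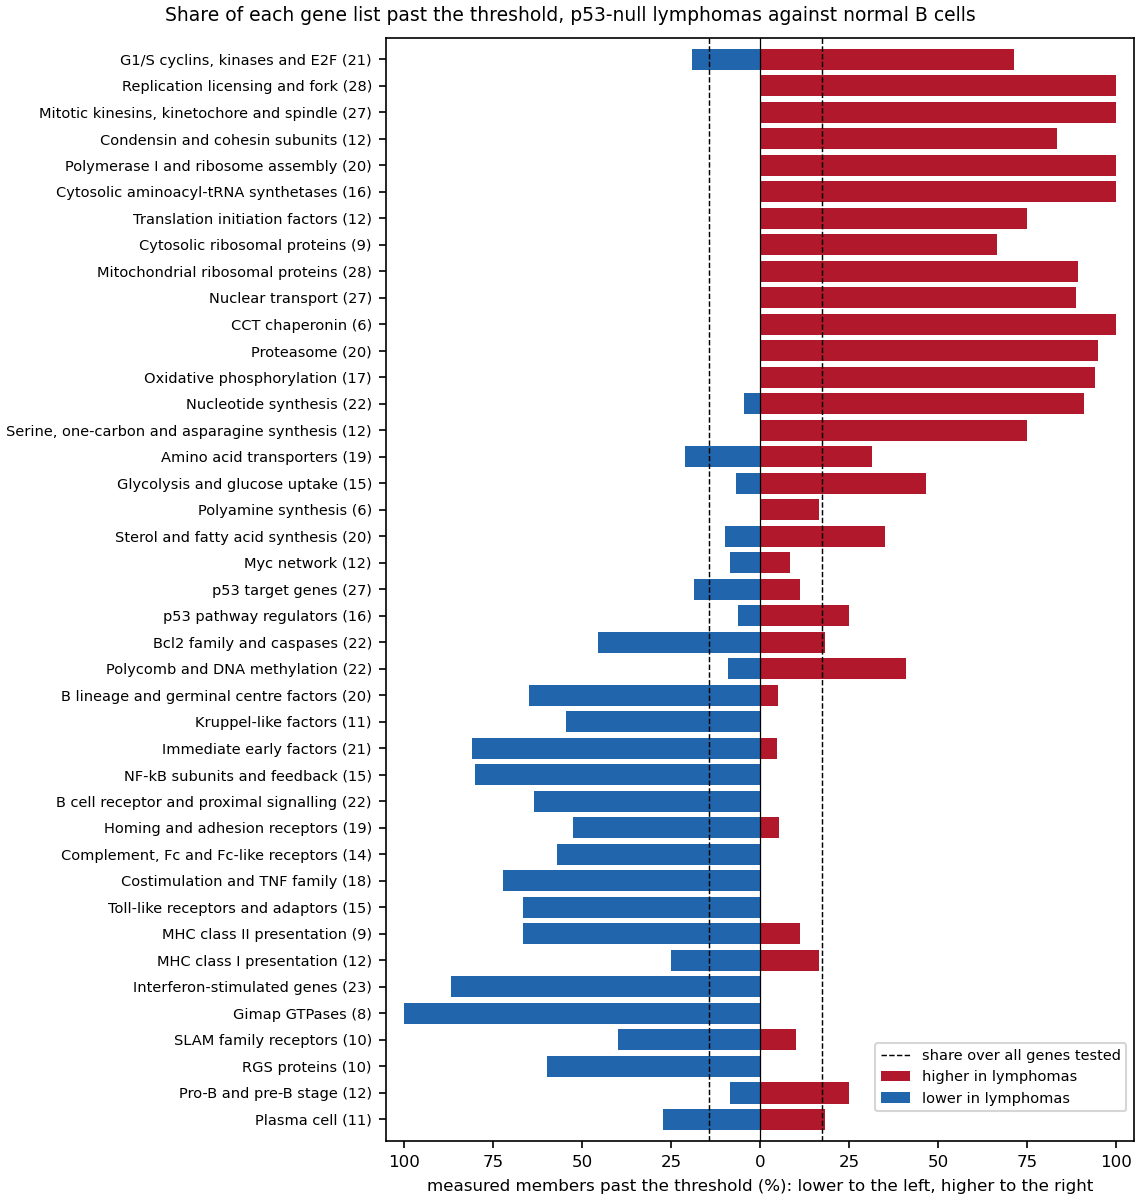
Share of the measured members of the gene lists past the adjusted p of 0.05 in p53-null lymphomas against normal B cells, higher to the right (red) and lower to the left (blue); the number measured stands in parentheses and dashed lines mark the shares over all genes, 17.5% and 14.4%. Lists of replication, mitosis, ribosome assembly and protein turnover reach to the right, and lists of Gimap, interferon, NF-kB and immediate early genes reach to the left.

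Promoter letters were read for the lists that moved together, from RefSeq windows of assembly GRCm38.p6 that run from 250 bases before to 50 bases after the start of 11869 tested genes. The first listed window was used for the 2222 of them with more than 1. Both strands were searched, and matches of different motifs were counted separately even where their letters overlap. The CHR letters TTTGAA, bound in cell cycle promoters by the DREAM and B-Myb complexes, were in 15 of 22 mitotic promoters (68.2%), against 14.6% of all promoters. Among genes at least 2-fold higher the CHR letters were in 17.6%, and among those at least 2-fold lower in 14.8%. The E2F letters TTTNNCGC were in 11 of 21 replication promoters (52.4%), against 7.16% of all. The Myc-Max E-box CACGTG was in 13.5% of promoters of genes at least 2-fold higher and 7.94% of those at least 2-fold lower, against 8.87% of all. By list the E-box share was 4.76% for replication, 4.55% for mitosis, 14.3% for nucleotide synthesis and 17.6% for ribosome assembly. It was 8.33% for serine and one-carbon synthesis, 33.3% for aminoacyl-tRNA synthetases and 0% for interferon-stimulated genes. The ATF4 letters TGATGNAA, of the amino acid response, were in 4 of 9 aminoacyl-tRNA synthetase promoters (44.4%), against 3.02% of all. Only these 9 of the 16 measured synthetases had a window. In the serine, one-carbon and asparagine list the ATF4 letters were in 2 of 12 promoters (16.7%). Among genes at least 2-fold higher they were in 2.69%, and among those at least 2-fold lower in 3.82%. The interferon response core GAAANNGAA was in 8 of 17 promoters of interferon-stimulated genes (47.1%), against 7.62% of all, and in 13.9% of promoters of genes at least 2-fold lower. The CCAAT box of NF-Y was in 46.4% of promoters of genes at least 2-fold higher and 34% of those at least 2-fold lower, against 38.5% of all. By list the CCAAT share was 71.4% for replication, 68.2% for mitosis, 38.1% for nucleotide synthesis and 29.4% for ribosome assembly. It was 75% for serine and one-carbon synthesis, 66.7% for aminoacyl-tRNA synthetases and 29.4% for interferon-stimulated genes. A match describes the letters and is no evidence of binding. For each of 5 lists, 120 bases are shown of the promoter with the largest difference among called members that hold the motif near the start, with the matched letters in capitals. They belong to Cenpn with a CHR match on the other strand at -9 from the start (chr8:116921650-116921769, plus strand), Dtl with an E2F match at -8 (chr1:191575515-191575634, minus strand), Atic with an E-box at -7 (chr1:71557066-71557185, plus strand), Asns with an ATF4 match at -23 (chr6:7693180-7693299, minus strand) and Ifitm3 with interferon response matches (chr7:141010715-141010834, minus strand).
Cenpn: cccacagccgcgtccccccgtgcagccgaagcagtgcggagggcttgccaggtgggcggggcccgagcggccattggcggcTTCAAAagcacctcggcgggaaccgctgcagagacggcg
Dtl: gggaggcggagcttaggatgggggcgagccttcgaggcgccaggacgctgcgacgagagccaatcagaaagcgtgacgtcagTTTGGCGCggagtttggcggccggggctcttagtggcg
Atic: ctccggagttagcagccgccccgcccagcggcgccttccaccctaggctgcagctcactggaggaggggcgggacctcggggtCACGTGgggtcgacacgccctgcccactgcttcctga
Asns: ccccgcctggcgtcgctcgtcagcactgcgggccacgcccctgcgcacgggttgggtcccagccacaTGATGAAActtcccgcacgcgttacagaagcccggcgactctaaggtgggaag
Ifitm3: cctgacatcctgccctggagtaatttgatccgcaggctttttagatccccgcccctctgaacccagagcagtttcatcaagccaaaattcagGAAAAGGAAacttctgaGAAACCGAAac
Atic, a purine synthesis enzyme, had 9.62, 10.05 and 10.12 in lymphomas, against 7.70 and 7.90 in normal samples (2.18, SE 0.15). The values of Cenpn, Dtl and Asns stand above, and those of Ifitm3 with the interferon genes below.

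The array signal of the Myc gene fell in lymphomas. On chromosome 15, its cluster of probes had 5.72, 5.96 and 6.42 in lymphomas, against 8.95 and 8.33 in normal samples 1 and 2 (-2.62, SE 0.20, adjusted p = 2.41e-08, limma). Without normal sample 1 the difference was -2.31. No label says whether this cluster reads the Myc sequence that drives the tumours. Of the 12 measured genes of the Myc network 1 other changed, the Myc antagonist Mxi1 (0.82, SE 0.19). The network thus had 8.33% higher and 8.33% lower, against 17.5% and 14.4% over all genes. Max, the partner of Myc, stood at -0.10 without passing.

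Genes of the p53 pathway were examined in cells that lack p53 in both groups. Of 27 measured p53 target genes 3 rose and 5 fell, or 11.1% and 18.5%, shares close to those over all genes (17.5% and 14.4%). Cdkn1a, the cell cycle inhibitor p21, was near background throughout, with 4.07, 4.29 and 4.51 in lymphomas, against 4.66 and 4.33 in normal samples. Mdm2, the ligase that degrades p53, was at -0.38 (SE 0.27, adjusted p = 0.289) and its partner Mdm4 at -0.47 (SE 0.24, adjusted p = 0.152, both limma), and neither passed. The detoxifying hydrolase Ephx1 fell by 3.80 (SE 0.17), Gadd45a by 1.499 (SE 0.21) and the death receptor Fas by 0.76 (SE 0.20) on the log2 scale, and Plk2 rose by 2.39 (SE 0.53). Without normal sample 1 the list had 1 higher and 3 lower. Among p53 regulators 4 of 16 rose and 1 fell (25% and 6.25%, against 17.5% and 14.4% over all genes), and without normal sample 1 the counts were 3 and 1. Cdkn2a, the locus of p16 and Arf, had 6.33, 6.48 and 6.69 in lymphomas, against 5.18 and 4.98 in normal samples (1.41, SE 0.15, adjusted p = 1.63e-06), and Chek2 rose by 1.76 (SE 0.24).

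More genes of cell survival and death fell than rose, 45.5% and 18.2% of those listed, against 14.4% and 17.5% over all genes. Of 22 Bcl2 family members and caspases 10 fell and 4 rose, and without normal sample 1 the counts were 7 and none. Bcl2, which blocks mitochondrial death, had 5.48, 5.82 and 6.30 in lymphomas, against 7.89 and 7.58 in normal samples (-1.86, SE 0.21, adjusted p = 2.29e-06, limma). Mcl1, a relative with the same action, fell by 0.77 on the log2 scale and the inhibitor of apoptosis Birc3 by 1.88 (SE 0.37). The inflammatory caspases Casp1 and Casp4 and Birc3 are all on chromosome 9. Casp1 had 3.76, 4.58 and 7.59 in lymphomas, against 9.01 and 9.11 in normal samples (-4.004, SE 0.89), a wide spread over the lymphomas.

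B lineage identity was kept in part. The receptor chain Cd79b, a defining B cell gene, stayed high in every sample, with 10.55, 11.22 and 11.35 in lymphomas, against 12.07 and 12.11 in normal samples (-1.06, SE 0.25). The lineage factor Pax5 had 9.09, 9.48 and 9.94 in lymphomas, against 10.50 and 10.55 in normal samples (-1.02, SE 0.26, adjusted p = 0.00665), and its adjusted p was 0.0547 without normal sample 1 (both limma). Ebf1 was at -1.33 (adjusted p = 0.083 without normal sample 1) and Cd79a stood at -0.77 (SE 0.63, adjusted p = 0.37) with overlapping groups. Ms4a1, the antigen CD20, had 8.50, 9.42 and 9.92 in lymphomas, against 11.70 and 11.75 in normal samples (-2.38, SE 0.42). Cd79b, Pax5 and Ms4a1 lay above the low-value level in all 8 samples.

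Of 20 B lineage and germinal centre factors 13 fell and 1 rose (8 and 1 without normal sample 1). Bcl6, the germinal centre repressor, had 4.14, 4.22 and 4.40 in lymphomas, against 7.19 and 7.85 in normal samples (-3.26, SE 0.17). Rgs13, a germinal centre regulator of G proteins, had 3.26, 3.36 and 3.51 in lymphomas, against 6.05 and 7.74 in normal samples (-3.52, SE 0.28). All lymphomas were near background in both genes, while the 2 normal samples differed from each other by more than the whole range of the lymphomas. Lmo2 (-1.97, SE 0.28) and Bach2 (-1.75, SE 0.39) fell too, and Tcf3, the E protein E2A, was the 1 that rose (0.86). Earlier stages showed single changes: of 12 pro-B and pre-B genes 3 rose and 1 fell, 1 and none without normal sample 1. With both normal samples the shares were 25% higher and 8.33% lower, against 17.5% and 14.4% over all genes. Myb, a factor of precursor cells, had 8.43, 8.97 and 9.05 in lymphomas, against 6.68 and 6.68 in normal samples (2.21, SE 0.18). Of 11 plasma cell genes 2 rose and 3 fell (18.2% and 27.3%, against 17.5% and 14.4% over all genes), and without normal sample 1 none rose and 2 fell. Among them were Slamf7 at 1.501 (SE 0.36), whose adjusted p was 0.068 without normal sample 1, and Xbp1 at -0.95 (SE 0.17).

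Signalling below the B cell receptor fell: of 22 measured genes 14 were lower and none higher (12 without normal sample 1; median -1.05). Beside Cr2 and Rasgrp3 the adaptor Pik3ap1 (-2.41, SE 0.35), the kinases Blk (-2.31, SE 0.47) and Syk (-2.08, SE 0.36) and the inhibitory receptor Cd22 (-1.96, SE 0.45) were lower. Btk and Plcg2, at -0.41 and -0.20, did not pass. Of 14 complement, Fc and Fc-like receptors 8 fell and none rose (7 without normal sample 1), with Fcrl1 at -4.27 (SE 0.43) after Cr2, Fcer2a and Fcrl5. RGS proteins, which end G protein signals, fell in 6 of 10 (5 without normal sample 1). Rgs2 had 4.99, 6.21 and 7.29 in lymphomas, against 10.30 and 9.97 in normal samples (-3.88, SE 0.51), and Rgs1 differed by -2.55 (SE 0.47). Rgs1, Rgs2, Rgs13 and Rgs18 all lie on chromosome 1, as do the SLAM receptors Slamf1 (-4.05, SE 0.18), Cd84 (-2.25, SE 0.40) and Slamf7, which was higher.

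Most homing receptors that passed the test were lower. Of 19 homing and adhesion genes 10 fell and 1 rose (11 and none without normal sample 1). Cxcr5, which guides B cells into follicles, had 3.10, 3.35 and 3.75 in lymphomas, against 7.24 and 7.68 in normal samples (-4.08, SE 0.16, adjusted p = 1.39e-11, limma). Ccr6 (-3.36, SE 0.28), the oxysterol receptor Gpr183 (-3.34, SE 0.26) and the adhesion receptor Adgre5 (-2.71, SE 0.53) were lower. Cxcr4 stood at -0.29 and Cd44 at 0.12, neither past the threshold. Of 18 costimulation and TNF family genes 13 fell and none rose (11 without normal sample 1). The ICOS ligand Icosl had 4.22, 4.63 and 4.93 in lymphomas, against 8.46 and 8.77 in normal samples (-4.02, SE 0.18), and the PD-1 ligand Cd274 had 4.94, 5.26 and 6.05 in lymphomas, against 8.17 and 8.63 in normal samples (-3.08, SE 0.25). Cd83 (-3.29, SE 0.21), Cd40 (-2.92, SE 0.26) and Cd86 (-1.78, SE 0.38) were lower too.

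Innate sensing and the interferon system were lower. Of 15 Toll-like receptors and adaptors 10 fell and none rose (7 without normal sample 1). Tlr7, a sensor of single-stranded RNA on the X chromosome, had 4.75, 5.51 and 6.88 in lymphomas, against 10.36 and 10.40 in normal samples (-4.77, SE 0.47). Tlr1 had 6.47, 8.28 and 8.73 in lymphomas, against 11.40 and 11.41 in normal samples (-3.57, SE 0.51). The adaptor Myd88, shared by most of these receptors, was at 0.00 and did not pass. Of 23 interferon-stimulated genes 20 fell and none rose (16 without normal sample 1; median -1.70). Ifitm3, which restricts virus entry, had 5.64, 6.29 and 8.12 in lymphomas, against 10.17 and 10.07 in normal samples (-3.40, SE 0.69, adjusted p = 0.001, limma). Zbp1 (-2.74, SE 0.24), the helicase Ddx58 (-2.40), the transcription factor Irf9 (-2.17) and Mx1 (-2.10) fell. The mean level of the list was 5.12 to 6.21 in lymphomas, against 7.12 and 7.32 in normal samples, so the groups did not overlap.

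All 8 measured Gimap GTPases, a gene cluster on chromosome 6 active in lymphocytes, fell (median -3.59), 7 of them without normal sample 1. Gimap8 had 4.46, 4.65 and 5.82 in lymphomas, against 9.58 and 9.90 in normal samples (-4.89, SE 0.31), Gimap4 had 4.91, 5.63 and 7.46 in lymphomas, against 9.97 and 10.10 in normal samples (-4.16, SE 0.46), and Gimap9 showed the smallest difference, -0.87. In antigen presentation, of 9 class II genes 6 fell and 1 rose (5 and 1 without normal sample 1), with the invariant chain Cd74 at -2.40 (SE 0.40), H2-Aa at -2.18 (SE 0.50) and H2-Oa at -3.56 (SE 0.27), and the promoter factor Rfxap higher at 0.98. H2-Ab1 had 6.62, 9.06 and 9.71 in lymphomas, against 11.01 and 11.36 in normal samples (-2.44, SE 0.67), and its adjusted p was 0.0606 without normal sample 1. Of 12 class I genes 3 fell and 2 rose (25% and 16.7%, against 14.4% and 17.5% over all genes; 2 and 1 without normal sample 1), with the peptide transporter Tap1 at -1.44 (SE 0.25) and the chaperone Canx at 0.85 (SE 0.13).

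Factors of acute stimulation were lower. Of 15 NF-kB subunits and feedback genes 12 fell and none rose (10 without normal sample 1). The subunit Rel had 7.75, 8.21 and 8.49 in lymphomas, against 10.88 and 10.82 in normal samples (-2.68, SE 0.51), and the inhibitors Nfkbiz (-1.92, SE 0.18), Nfkbie (-1.76, SE 0.26) and Tnfaip3 (-1.75, SE 0.29) fell. Rela, the partner subunit, was at -0.47 without passing. Of 21 immediate early genes 17 fell and 1 rose (13 and 1 without normal sample 1). Dusp1, a phosphatase of MAP kinases, had 4.83, 5.14 and 6.04 in lymphomas, against 8.26 and 8.27 in normal samples (-2.95, SE 0.28), and Jun had 4.18, 4.28 and 4.60 in lymphomas, against 7.67 and 6.77 in normal samples (-2.90, SE 0.20). Fos (-2.04, SE 0.22) and Egr1 (-1.82, SE 0.16) fell with them and Nr4a2 rose (0.82, SE 0.30). The list's mean level was higher in normal sample 1 (6.61) than in normal sample 2 (6.29), and lay at 5.05 to 5.22 in lymphomas. Of 11 Kruppel-like factors 6 fell and none rose, 3 without normal sample 1, with Klf3 (-2.97, SE 0.31) and Klf6 (-2.58, SE 0.23) in front and Klf2, a factor of quiescent lymphocytes, at -0.80.

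Markers of other cell types were read because both tissues hold more than B cells. Of 9 NK cell genes 5 were lower and none higher, and of 16 macrophage and monocyte genes 5 were lower and none higher. Of 8 dendritic cell genes 5 were lower and none higher. The lower shares were 55.6%, 31.2% and 62.5%, against 14.4% over all genes. Near background in both groups were 5 of the NK genes, 7 of the macrophage genes and 1 of the dendritic genes. The called NK genes Gzmb and Klrg1 were among them. Without normal sample 1 the lower counts were 6, 3 and 5. The mean level of the NK list was 4.08 to 4.74 in lymphomas, against 4.76 and 5.54 in normal samples. The macrophage list lay at 4.66 to 5.70 in lymphomas, against 5.97 and 6.02 in normal samples, and the dendritic list at 4.70 to 5.11 in lymphomas, against 5.38 and 5.73 in normal samples. The macrophage list held Cybb, a phagocyte oxidase subunit that B cells also express, with 4.98, 7.19 and 7.97 in lymphomas, against 11.14 and 11.31 in normal samples (-4.40, SE 0.82). The monocyte chemokine receptor Ccr2 had 4.35, 5.84 and 7.33 in lymphomas, against 8.38 and 8.09 in normal samples. Adgre1, a macrophage surface receptor, had 4.19, 4.74 and 5.71 in lymphomas, against 5.79 and 7.10 in normal samples. These 3 genes were lower in every lymphoma than in either normal sample. C1qa, a complement gene of macrophages, was near background in both groups, with 3.70, 4.19 and 4.41 in lymphomas, against 4.27 and 3.95 in normal samples. The growth factor receptor Csf1r had 4.33, 4.53 and 5.23 in lymphomas, against 5.63 and 6.22 in normal samples, and the NK receptor Ncr1 had 3.65, 3.86 and 4.24 in lymphomas, against 4.86 and 5.53 in normal samples. The part of these cells in the falls of receptor, interferon and Toll genes was not tested.

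Of 7 platelet genes 1 was lower (14.3%, against 14.4% over all genes), Ppbp, with 4.47, 4.92 and 5.48 in lymphomas, against 10.47 and 9.35 in normal samples, whereas the platelet integrin Itga2b was near background in both groups. T cell genes had 3 of 15 lower, 1 without normal sample 1. The lower share of the T cell list was 20%, against 14.4% over all genes. Its mean level was 4.74 to 4.92 in lymphomas 1 to 5 and 6.06 in lymphoma 6, against 4.97 and 5.76 in normal samples. Cd3g stood at 8.05 in lymphoma 6, against 3.46 and 7.39 in normal samples. The direction of that list's median changed without normal sample 2. Of 17 neutrophil genes 7 were higher and none lower, and without normal sample 1 the counts were 3 and 1. S100a8 had 7.65, 8.31 and 8.95 in lymphomas, against 3.71 and 6.89 in normal samples (3.003, SE 0.56, adjusted p = 0.000441; difference 1.41 without normal sample 1), so the 2 normal samples differed by more than the lymphomas did among themselves. With both normal samples 41.2% of the neutrophil list was higher, against 17.5% over all genes. The neutrophil granule genes Mpo and Elane were near background in both groups. Of 9 erythroid genes 1 was higher (11.1%, against 17.5% over all genes), Tfrc, the transferrin receptor that dividing cells use (2.45, SE 0.17). Of 19 stroma and endothelium genes 1 was higher and 3 lower (5.26% and 15.8%, against 17.5% and 14.4% over all genes), and without normal sample 1 none was higher and 1 lower. The erythroid median was -0.02 with both normal samples and 0.05 without normal sample 1, and the stroma median was -0.19 and 0.02, so neither list has a settled direction.

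**Figure D4:**
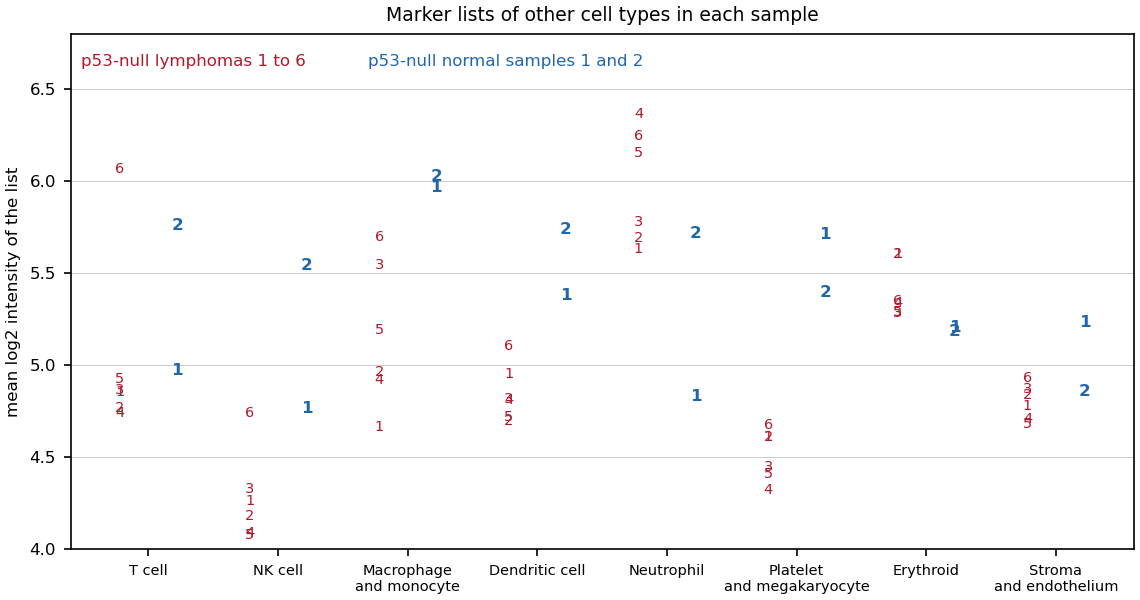
Mean log2 intensity of the measured genes of 8 marker lists in each sample, with p53-null lymphomas 1 to 6 as red numbers and p53-null normal samples 1 and 2 as bold blue numbers beside them. Lymphoma 6 stands at 6.06 in the T cell list, above the other lymphomas, and normal sample 1 is lowest in the neutrophil list at 4.83. The means of the NK, macrophage, dendritic and platelet lists are lower in every lymphoma than in either normal sample. Of the 7 platelet genes only Ppbp passed the threshold, and the median difference of that list was -0.30.

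The 6 lymphomas differed widely from each other in a few genes. Cd36, a fatty acid receptor, had 4.08, 5.91, 9.07, 8.52, 9.25 and 7.94 in lymphomas 1 to 6, against 8.81 and 8.76 in normal samples, so that lymphomas 1 and 2 were low and the others near the normal level. Enpep, an aminopeptidase also known as the BP-1 antigen of early B cells, had 4.04, 4.05 and 4.15 in lymphomas 1 to 3 and 6.54, 7.45 and 8.53 in lymphomas 4 to 6, against 4.53 and 3.80 in normal samples. Il7r, the interleukin 7 receptor of precursor lymphocytes, was 5.68 in lymphoma 1 and 8.09 to 9.73 in the others, against 5.9985 and 7.72 in normal samples (1.58, SE 0.85, adjusted p = 0.168). Hepacam2 was 4.85 in lymphoma 1 and 6.77 in lymphoma 6 and 8.90 to 9.32 in the others, against 5.63 and 5.08 in normal samples. The metallothionein Mt2 ranged from 4.57 in lymphoma 5 to 8.82 in lymphoma 1, against 4.57 and 3.88 in normal samples. Timd2 was 7.76 in lymphoma 5 and at most 4.05 in the others. Among the 10 genes with the widest range, X and Y left out, lymphoma 1 was the lowest of the 6 in Cd36, Cd3g, Enpep, Enpp4, Hepacam2 and Il7r and the highest in Mt2 and Olfr165.

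**Figure D5:**
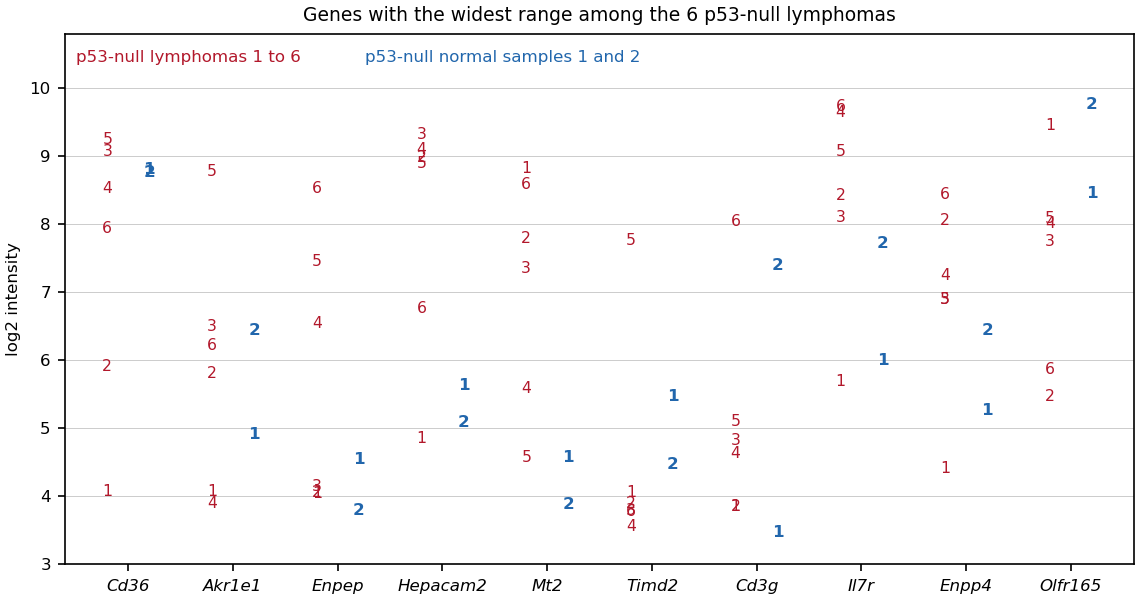
Log2 intensity of the 10 genes with the widest range over the 6 p53-null lymphomas, genes on X and Y left out, with lymphomas 1 to 6 as red numbers and normal samples 1 and 2 as bold blue numbers beside them. Cd36 spans 4.08 to 9.25 over the lymphomas, and Timd2 and Cd3g are each high in 1 lymphoma.

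No gene passed the test of a different lymphoma effect between the p53 genotypes. In the comparison of the p53-null with the p53-246 difference 0 of 14860 genes (0%) passed in limma, with 540 at an unadjusted p under 0.05; without normal sample 2 the count was 473, of which 445 had the lower difference in p53-null cells. A p above the threshold does not show that the genotypes act alike. The smallest p belonged to Plxdc2, with 4.23, 4.51 and 5.20 in p53-null lymphomas, against 4.91 and 4.77 in p53-null normal samples, and a mean of 4.64 (SD 0.25) in p53-246 lymphomas, against 6.06 and 7.15 in p53-246 normal samples (unadjusted p = 0.000241, adjusted p = 0.997). The list medians stood side by side at 3.18 in p53-null and 2.995 in p53-246 cells for mitosis, 2.51 and 2.25 for replication, -1.70 and -1.67 for interferon-stimulated genes and -3.59 and -3.89 for Gimap genes. The Y-linked gene Eif2s3y was 9.30 and 9.47 in p53-null lymphomas 3 and 6 and 3.45 to 3.63 in the other 4. It was 9.75 and 9.91 in p53-null normal samples, so 4 of these lymphomas and neither p53-null normal sample lacked that signal. In p53-246 normal samples 1 and 2 it was 9.52 and 3.51. With its level as a covariate 3919 genes passed, 2283 higher and 1636 lower.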

How the data were processed

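Whole-transcript exon arrays of 16 mouse samples were read from the deposited log2 table, 1 array per sample. The log2 intensity values were summarised by the authors per transcript cluster. The submitters' processing notes name Partek 6.5 and build mm8, and the design text in the labels names a mixed model analysis of variance. Summarisation, normalization and the log base are not given in the sources used here; values from 2.51 to 13.5 are read as log2. Of 23332 transcript clusters, 14996 carried 1 gene symbol, 1019 several and 7317 none. For 135 genes with several clusters the brightest was used, which left 14860 genes. Xist and Trp53 are not analysed here.

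Groups were taken from the labels. A linear model with 1 mean per group was fitted to all 16 arrays in limma 3.58.1 (R 4.3.3), with moderated tests of p53-null lymphoma minus p53-null normal and of its difference from the p53-246 contrast, adjusted by Benjamini-Hochberg over all genes at 0.05. Adjusted p-values in the text come from this fit. The steps were tested on simulated data with independent noise and 200 changed genes. Of 2-fold changes 72.5% were recovered, with 2 false calls, and of 1.5-fold changes 13%, with 4 false calls. Named genes were the 15 highest and the 15 lowest differences with no overlap between groups (X and Y left out), the 4 called members with the largest difference in each of 49 lists, a short set of fixed genes, the 10 widest ranges over lymphomas (X and Y left out), the 10 smallest differences and the 5 smallest p of the difference between contrasts. The members and lists were chosen with earlier results of these data known, and any other gene named was chosen after its values were seen. Alternatives changed the arrays used, weights, centring, normalization, filter, clusters, variance, covariates and samples left out.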

Additional observations from a re-analysis of the deposited data

Results flagged for a closer look

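In a group of 4 to 10 samples a value was marked where its gap to the nearest other value took a larger share of the group's range than Dixon's 95% critical value for 6 samples. Chance marks about 1 in 20 groups that are independent and not selected. The named genes share arrays, and 10 were picked for their wide range over these lymphomas, so that rate is no baseline here. Over the 6 p53-null lymphomas 30 of the 229 named genes were marked. Lymphoma 1 accounted for 11 of them and lymphoma 6 for 10. Lymphoma 1, whose standard deviation over genes was the smallest of the 6 (1.77), was low with gap shares of 0.823 in Myb, 0.782 in Dtl, 0.781 in Mthfd2, 0.746 in Cct7, 0.708 in Gins2, 0.679 in Hars, 0.660 in Ezh2, 0.648 in Gars and 0.645 in Mcm3, and it was high in Tcta (0.761) and Ly6m (0.660). Lymphoma 6 was high in Rras2 (0.890, at 6.29 with the next lymphoma at 4.50), Cd5 (0.810), Slc7a1 (0.790), Siglech (0.773), Cd28 and Cd3g (0.702 each), Tpi1 (0.697), Jun (0.686), Klf6 (0.638) and Ccne2 (0.630). Lymphoma 2 was low in the class II genes H2-Aa (0.735, at 8.45 with the next at 9.53) and H2-Ab1 (0.659, at 6.62 with the next at 8.65) and high in Eif1a (0.667). Lymphoma 3 was high in Psmd2 (0.672) and low in Ccna2 (0.668). Lymphoma 4 was high in Dctd (0.647) and Slc7a5 (0.645). Lymphoma 5 was high in Timd2 (0.881, at 7.76 with the next at 4.05) and Klf12 (0.755).

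Transcript clusters with several gene symbols or none were outside the comparison of genes. Of 8336 such clusters 1967 passed the threshold in limma, 675 higher and 1292 lower in lymphomas.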

How the results depend on the processing

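Without normal sample 1, 2856 genes passed, the lowest total of any setting run, 1721 higher and 1135 lower in lymphomas, and 24 of 203 called named genes no longer passed. Over all samples left out in turn the count ran from 2856 to 5312, the higher count from 1721 to 2608 and the lower count from 1135 to 2864. The test of the difference between genotypes ran from 0 to 473, the last without normal sample 2. Array weights gave 1232 lower genes, and the causes of these shifts were not tested. Under the other alternatives the total stayed within 1.5 times the count reported, and no called named gene changed sign in any setting run. List medians near 0 changed sign: the T cell median without normal sample 2 (0.13), the plasma cell median (0.08) and the Myc network median (0.10) with centred arrays, and the erythroid and stroma medians after quantile normalization (0.17 and 0.01), with array spread as a covariate (0.27 and 0.07) and without normal sample 1 (0.05 and 0.02). List medians moved by more than the spread between samples in 30 of 49 lists with array spread as a covariate. The number was 26 after quantile normalization, 25 with centred arrays and 21 with the low-value filter. It was 24 without normal sample 2, 15 without normal sample 1, 12 with a replicate block and 6 with Eif2s3y as a covariate. Samples of the same number in different groups deviated with correlations of 0.174 for number 1 and -0.068 for number 2, and the reported fit holds no block; the labels do not say what a number marks. With a replicate block 3863 genes passed, 2327 higher and 1536 lower, and the test of the difference between genotypes gave 0.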

Other observations

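The 10 genes whose difference was smallest relative to its error, among genes of at least median level in both groups, were Apobec1, Cep68, Cfap97, Defb4, Ly6m, Megf9, Rabac1, Rap1gds1, Trav13-5 and Usp54. Apobec1, an editing enzyme of cytosine in RNA, had log2 intensities of 8.46, 8.96 and 9.31 as the lowest, median and highest lymphoma, against 8.57 and 9.25 in normal samples. Usp54, a member of the ubiquitin protease family, had 6.03, 6.37 and 6.55 in lymphomas, against 6.07 and 6.56 in normal samples. In these genes the lymphomas overlapped with the normal samples.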
